A study of Mus musculus with 16 samples.

Results

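The 10 genes Hsd3b2, Hsd3b3, Hsd3b5, Hsd3b7, Hsd11b1, Hsd17b2, Hsd17b6, Hsd17b13, Srd5a1 and Akr1d1 encode dehydrogenases and reductases that act on steroids in the liver. They were taken by name from a table of 41079 genes, and all 10 were among the 16742 genes with enough reads to be tested. RNA from whole liver of 16 C57BL/6J mice aged 20 to 22 months was sequenced, 1 library per mouse. All mice carried a floxed glucagon receptor gene, Gcgr. The 4 male and 4 female mice named LKO also carried Albumin-Cre, which deletes the floxed stretch in hepatocytes, the cells in which the albumin promoter is active. The 4 male and 4 female mice named CRE- carried the floxed alleles without Cre. Whether Gcgr in the other cells of the liver stayed intact was not tested.

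Steroid hormones are switched on, switched off and cleared by enzymes that move hydrogen on and off the steroid rings. Hydroxysteroid dehydrogenases convert hydroxyl groups to keto groups or back, whereas the steroid reductases saturate a double bond of the A ring. In the liver these reactions inactivate androgens, estrogens and glucocorticoids, regenerate active glucocorticoid, and build bile acids from cholesterol, and in mice several of the genes differ between males and females.

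Levels are given as CPM, read counts scaled to library size and TMM factors, and levels of different genes are compared only as CPM per kilobase, with the length of all annotated exons of the gene as divisor unless stated. Between 33268424 and 56488920 reads per library fell on genes. A gene was called changed when its p from edgeR's quasi-likelihood test, adjusted over all 16742 genes by Benjamini-Hochberg, was under 0.05. Genes that were not called are described by their values. For LKO against CRE-, 1595 of the 16742 genes in males and 3584 in females had an unadjusted p under 0.05 by edgeR. DESeq2 called 2.03% of genes in males and 11.1% in females. Fewer cells of a type and less RNA per cell cannot be told apart in whole liver.

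The liver label was checked on 9 hepatocyte markers present in the table. Albumin (Alb) was the most abundant of them per kilobase of exon, at 41686.7 to 105504 CPM, and none of the 9 had 0 reads in any library. The summed hepatocyte markers were 81720.1, 111255, 119586 and 109765 CPM in male CRE-, 77171.3, 92640.2, 106184 and 93107.2 in male LKO, 135043, 127137, 133619 and 149983 in female CRE-, and 66460.7, 106035, 107699 and 86732.9 in female LKO. In females every LKO library was under every CRE- library, and 0 of the 9 genes were called by edgeR, with 2 at an unadjusted p under 0.05 and 1 called by DESeq2. Of all genes in females 4.24% were called by edgeR and 11.1% by DESeq2, and 3584 of 16742 were at an unadjusted p under 0.05 by edgeR. Of 9 adrenal markers Cyp11b2, Mc2r and Nr5a1 had at most 10 reads in every library and 5 had enough reads to be tested. The most abundant per kilobase of exon, Akr1b7, ranged from 0.260003 to 59.3565 CPM, and the 9 summed to 1.34843 to 61.2656 CPM, the highest in female LKO replicate 4. All 16 libraries matched their labelled sex by Xist and Ddx3y.

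Gcgr, the targeted gene, was at 190.406, 192.883, 127.35 and 189.567 CPM in male CRE- and at 116.534, 135.861, 129.885 and 160.35 in male LKO. It was at 161.841, 208.089, 200.737 and 179.993 CPM in female CRE- and at 48.8126, 131.912, 118.639 and 93.5761 in female LKO. The female groups did not overlap, and the male groups overlapped through male CRE- replicate 3, which was under 3 of the 4 male LKO libraries. Gcgr fell in female LKO (log2 fold change −0.934, SE 0.247, Benjamini-Hochberg adjusted p 0.0443 by edgeR's quasi-likelihood test), while in males its value was −0.368 (SE 0.245, adjusted p 0.671). The female call was kept in 3 of the 16 fits with 1 library left out. The counts cover all exons of Gcgr, so they do not measure the floxed stretch alone.

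Of the 16 libraries, 3 stood apart by their mean correlation with the rest: female LKO replicate 1 (r = 0.905), male CRE- replicate 3 (0.923) and female LKO replicate 4 (0.924), against at least 0.940 for the others. Male CRE- replicate 3 was the lowest library of its group for 6 of the 10 steroid genes, and female LKO replicate 1 was also the lowest for 6. Female LKO replicate 2 was the highest of its group for 7, and female CRE- replicate 1 the lowest of its group for 7, counting Hsd3b5, for which it and replicate 4 both had 0 reads. Male LKO replicate 1 was the lowest of its group for 6 and the highest for 4. That library differed from the other male LKO libraries at genes with a known sex bias, chosen here after their values were seen. Mup20 was at 232.501 CPM in it and at 10149.1 to 18454.4 in the other 3, Cyp4a12a at 3.47286 against 154.392 to 205.759, Cux2 at 60.3506 against 0.540262 to 0.894385, and Sult2a1 at 115.608 against 0 to 0.124929. Its Cyp4a12a level lay between the CRE- males and the females, and its Cux2 level lay among those of the females.

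Per kilobase of exon, the 10 genes spanned a wide range of levels. Hsd11b1 was the highest, with a mean of 277.578 CPM per kb over the 16 libraries, followed by Hsd3b7 at 162.207, Hsd17b13 at 155.518, Hsd17b6 at 148.803 and Hsd17b2 at 80.1813. Hsd3b3 was at 30.5133 CPM per kb, Akr1d1 at 26.2502, Srd5a1 at 13.3606, Hsd3b5 at 10.9935 and Hsd3b2 at 6.0626. The order depended on the length used. Per kilobase of the canonical transcript, Hsd17b13 (251.786) was above Hsd3b7 (192.94), and Hsd3b2 (16.3344) was above Srd5a1 (14.3745) and Hsd3b5 (11.3393). It also differed by group: per kilobase of exon, Hsd17b6 was at 51.2 ± 7.99 CPM in male CRE- (mean ± SD, n = 4), under Hsd17b2 at 65.0 ± 14.3, and at 256 ± 76.1 in male LKO, where Hsd11b1 was at 266 ± 10.8. Hsd3b5 was at 41.4 ± 33.3 in male LKO, above Akr1d1 at 18.9 and Srd5a1 at 16.8. In male CRE-, female CRE- and female LKO Hsd3b5 was at 2.44, 0.0466 and 0.0833. All these levels are of counted reads, and the 10 genes differ in how much sequence they share with other genes, as given below. Hsd11b1 was above 98.3873% of the tested genes per kilobase of exon, over all 16 libraries, and Hsd3b2 above 67.9429%. Together the 10 genes held between 0.0986 and 0.248% of the reads of a library, with the lowest share in female LKO replicate 1 and the highest in male LKO replicate 3.

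**Figure D1:**
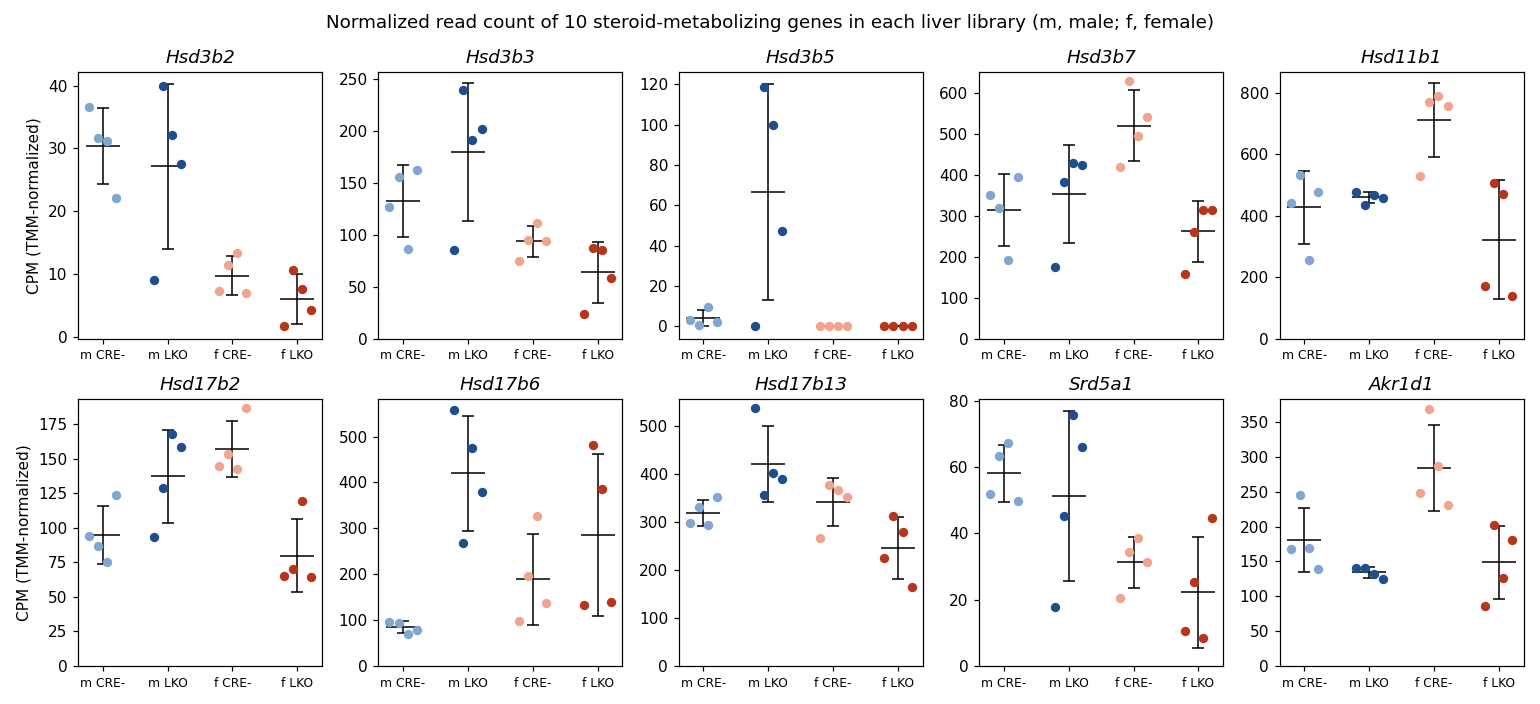
Normalized level (CPM) of the 10 genes in each of the 16 libraries; bars mark group means with SD, n = 4.

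In male LKO against male CRE- 1 of the 10 genes was called by edgeR and 1 by DESeq2, where 0.454% of all tested genes were called by edgeR and 2.03% by DESeq2. The groups did not overlap for 2 of the 10, both higher in LKO, against 6.49% of all genes. In female LKO against female CRE- 2 of the 10 were called by edgeR and 4 by DESeq2, all lower in LKO, against 4.24% and 11.1% of all genes, and the groups did not overlap for 4, all lower, against 11.6%. With so few genes, 1 called male gene and 2 called female genes were above the share of all genes, while 6 or more of the 10 overlapped between LKO and CRE- in each sex. The 10 were chosen with earlier results of these data known, so their place above that share is not read as support. The male count was 0 without any 1 of male CRE- replicates 1, 2, 3 and 4 or male LKO replicates 3 and 4, and without male LKO replicate 1 the gene called was Hsd3b5 in place of Hsd17b6. The female count was 0 without any 1 of male CRE- replicate 1, male LKO replicates 2 and 4, the 4 female CRE- replicates and female LKO replicates 1 and 4, and 1 without male LKO replicate 3 or female LKO replicate 3. Over all genes the number called in females ran from 87, without female CRE- replicate 2, to 1310, without female LKO replicate 2. The median log2 fold change of the 10 was 0.284 in males (all genes −0.00780) and −0.623 in females (all genes 0.0354).

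**Figure D2:**
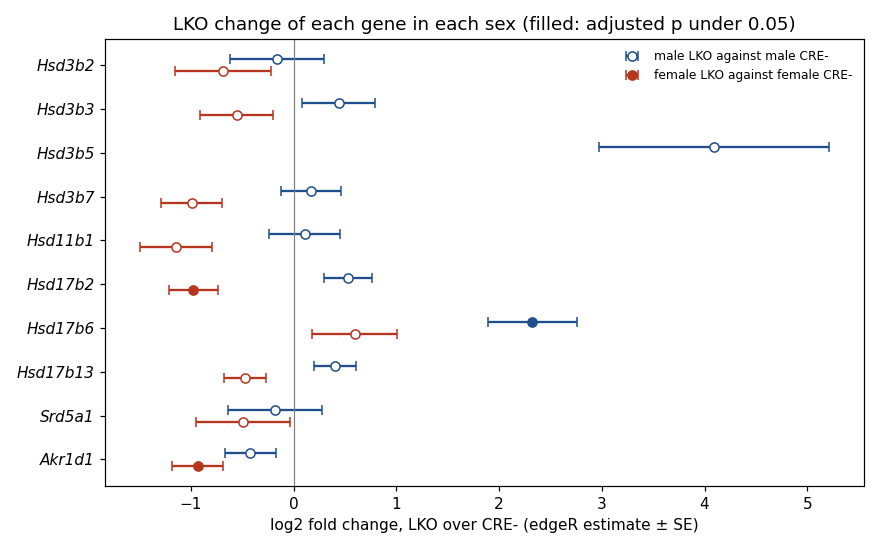
Log2 fold change (edgeR estimate ± SE) of each gene in LKO against CRE- in each sex. Filled points were called. Hsd3b5 in females, with at most 10 reads per library, is not drawn.

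Hsd17b6 encodes an oxidoreductase that turns androstanediol back to dihydrotestosterone and also acts on retinol. In males it was at 95.5376, 94.3475, 68.6928 and 77.4899 CPM in CRE- and at 557.149, 267.12, 475.117 and 379.453 in LKO. Every male LKO library was above every male CRE- library, the lowest of them, replicate 2, by a wide margin. Hsd17b6 rose 4.995 times, from 84.0 ± 13.1 to 420 ± 125 CPM (mean ± SD, n = 4). On the log2 scale the change was 2.32 (SE 0.433), and edgeR's quasi-likelihood test gave a Benjamini-Hochberg adjusted p of 0.0273. The size of the difference held when any library was left out, at a log2 fold change of 2.14 to 2.48, but the call did not. By edgeR the adjusted p was 0.0736, 0.0759, 0.0932 and 0.0747 without male CRE- replicates 1, 2, 3 and 4, and 0.0729, 0.0679 and 0.0542 without male LKO replicates 1, 3 and 4. Without the 3 libraries that stood apart the log2 fold change was 2.23 and edgeR's adjusted p was 0.0112.

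In females Hsd17b6 was at 98.2759, 194.872, 325.935 and 136.131 CPM in CRE- and at 132.013, 482.274, 384.91 and 140.031 in LKO. Both female groups were spread, with 2 high and 2 low LKO libraries, and they overlapped. The log2 fold change was 0.593 (SE 0.414, adjusted p 0.445 by edgeR), lowest without female LKO replicate 2 (0.213) and highest without female CRE- replicate 3 (0.991), and 1.23 without the 3 libraries that stood apart. Every CRE- female was above every CRE- male for Hsd17b6, but narrowly, with female replicate 1 at 98.2759 CPM and male replicate 1 at 95.5376. This sex difference was not called (log2 fold change 1.17, SE 0.418, adjusted p 0.254 by edgeR). Of the 4 female CRE- libraries 3 were under every male LKO library. Averaged over the sexes Hsd17b6 rose by 1.46 on the log2 scale (SE 0.298, adjusted p 0.0140 by edgeR), and it stayed called without any 1 of the 16 libraries.

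Hsd17b2 encodes the enzyme that oxidizes estradiol to estrone and testosterone to androstenedione, the inactivating direction. In females it was at 144.963, 153.721, 142.939 and 186.622 CPM in CRE- and at 64.773, 70.2818, 119.664 and 64.6499 in LKO. The female groups did not overlap, and LKO replicate 3 lay between the other 3 LKO libraries and the controls. Hsd17b2 fell from 157 ± 20.3 to 79.8 ± 26.7 CPM (mean ± SD, n = 4). On the log2 scale this was −0.976 (SE 0.237), with 0.0334 as the Benjamini-Hochberg adjusted p of edgeR's quasi-likelihood test. In males it was at 93.9957, 86.7953, 75.1929 and 124.123 CPM in CRE- and at 93.6128, 129.135, 167.821 and 158.594 in LKO. The male groups overlapped through LKO replicate 1, and the log2 value for males was 0.531 (SE 0.235), where edgeR gave an adjusted p of 0.480.

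The female call for Hsd17b2 was lost without any 1 of 9 libraries. By edgeR the adjusted p was 0.0517 when male CRE- replicate 1 was left out, 0.0529 and 0.0511 without male LKO replicates 2 and 4, 0.0504, 0.0908, 0.0756 and 0.0911 without female CRE- replicates 1, 2, 3 and 4, and 0.104 and 0.0779 without female LKO replicates 1 and 4. Without the 3 libraries that stood apart, which leaves 2 female LKO libraries, the log2 fold change of Hsd17b2 was −0.702 and edgeR's adjusted p was 0.258. Sdr42e1, within 100 kb on chromosome 8, also fell in female LKO (log2 fold change −1.04, adjusted p 0.0247 by edgeR), and its product belongs to the short-chain dehydrogenase family. Gm38416, which lies between Sdr42e1 and Hsd17b2, was not called (0.913, adjusted p 0.345 by edgeR). Within 100 kb of the 10 genes lay 44 other tested genes, of which 0 were called in males and 2 in females, the second being Prim1 near Hsd17b6 (0.825, adjusted p 0.0462 by edgeR). With 0.454% of all tested genes called in males and 4.24% in females, these counts were about the share of all genes. Sdr42e1 stayed called in 11 and Prim1 in 4 of the 16 fits with 1 library left out, and neither without the 3 libraries. This neighbourhood was chosen after the values were seen.

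Akr1d1 encodes the steroid reductase that saturates the A ring in the 5β position, a step of bile acid synthesis and of glucocorticoid and androgen clearance. In females it was at 247.542, 368.798, 287.387 and 231.446 CPM in CRE- and at 85.29, 201.845, 126.066 and 180.702 in LKO. The female groups did not overlap, with LKO replicate 1 lowest and LKO replicate 2 nearest the controls. Akr1d1 fell from 284 ± 61.4 to 148 ± 52.9 CPM (mean ± SD, n = 4). On the log2 scale this was −0.935 (SE 0.250), and edgeR's quasi-likelihood test gave it 0.0459 as its p after Benjamini-Hochberg adjustment. In males it was at 167.662, 245.46, 169.054 and 138.507 CPM in CRE- and at 141.152, 140.192, 131.822 and 124.557 in LKO. Of the male LKO libraries 2 were under every control and 2 were above male CRE- replicate 4, and the log2 value was −0.422 (SE 0.248, adjusted p 0.625 by edgeR).

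For the average over the sexes 2 of the 10 genes were called by edgeR and 2 by DESeq2, against 2.86% and 6.2% of all genes. Beside Hsd17b6 this was Akr1d1, which fell by 0.679 on the log2 scale (SE 0.176, adjusted p 0.0474 by edgeR). The female call was near the threshold and was lost without any 1 of 12 libraries. By edgeR the female adjusted p for Akr1d1 was 0.0623 when male CRE- replicate 1 was left out, 0.0514, 0.0644, 0.0605 and 0.0644 without male LKO replicates 1, 2, 3 and 4, 0.0614, 0.161, 0.109 and 0.0746 without female CRE- replicates 1, 2, 3 and 4, and 0.110, 0.0901 and 0.0539 without female LKO replicates 1, 3 and 4. For the average over the sexes it was 0.0686, 0.110 and 0.0566 without male CRE- replicates 1, 2 and 3, 0.0782, 0.0771, 0.0860 and 0.0928 without male LKO replicates 1, 2, 3 and 4, 0.0600, 0.116, 0.0861 and 0.0584 without female CRE- replicates 1, 2, 3 and 4, and 0.0877 without female LKO replicate 3, all by edgeR. Without the 3 libraries that stood apart the female log2 fold change was −0.772 (adjusted p 0.184) and the averaged one −0.615 (adjusted p 0.0737), again by edgeR.

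Hsd3b7 encodes the dehydrogenase that oxidizes the 3β-hydroxyl of bile acid precursors. In females it was at 419.719, 628.686, 494.23 and 540.888 CPM in CRE- and at 157.968, 261.307, 313.463 and 314.572 in LKO. The groups did not overlap, and the log2 fold change was −0.992 (SE 0.296), with an adjusted p of 0.0666 by edgeR and 0.0194 by DESeq2. In males, where the groups overlapped, CRE- was at 193.052 to 396.147 CPM and LKO at 175.675 to 429.454, with a log2 value of 0.166 (adjusted p 0.885 by edgeR), or −0.0259 without male CRE- replicate 3. Without male LKO replicate 1 the female adjusted p for Hsd3b7 was 0.0416 by edgeR, under the threshold. It was also under it with the replicate number as a block (0.0351 by edgeR) and with limma-voom (0.0231). Without the 3 libraries that stood apart the female log2 fold change of Hsd3b7 was −0.835 (adjusted p 0.227 by edgeR).

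Among 14 other genes of bile acid synthesis, 1 rose in male LKO, Cyp39a1 (log2 fold change 2.75, adjusted p 0.000696), and 2 fell in female LKO, Baat (−0.752, 0.0294) and Slc27a5 (−0.772, 0.0335), all by edgeR. Over all tested genes edgeR called 0.454% in males and 4.24% in females. Cyp39a1 encodes an oxysterol hydroxylase. It was also higher in every female LKO library, at 43.5523 to 69.0756 CPM, than in every female CRE- library, at 17.9886 to 33.7595, but was not called there (1.06, adjusted p 0.0570 by edgeR). Slc27a5 encodes the synthetase that joins bile acids to coenzyme A, and Baat the transferase that passes them on to taurine or glycine. Cyp39a1 stayed called in all 16 fits with 1 library left out and without the 3 that stood apart, whereas Baat stayed called in 11, Slc27a5 in 9, and neither without the 3. The median log2 fold change of the 14 was 0.250 in males and −0.344 in females, beside −0.00780 and 0.0354 over all genes.

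Hsd11b1 encodes the reductase that regenerates corticosterone from its keto form. In females it was at 529.971, 770.338, 787.913 and 754.693 CPM in CRE- and at 170.53, 506.308, 468.924 and 139.048 in LKO. The groups did not overlap, LKO replicates 1 and 4 were well under LKO replicates 2 and 3, and CRE- replicate 1 was well under the other controls. The log2 fold change was −1.15 (SE 0.353), with an adjusted p of 0.0731 by edgeR and 0.0198 by DESeq2. Without female LKO replicate 2 the edgeR adjusted p for Hsd11b1 was 0.0279, under the threshold, and without the 3 libraries that stood apart the log2 fold change was −0.521 (adjusted p 0.198 by edgeR). In males CRE- ranged from 255.661 to 531.844 CPM and LKO from 434.15 to 478.097, the tightest of the 4 groups for this gene, with a log2 value of 0.106 (adjusted p 0.945 by edgeR), or −0.0896 without male CRE- replicate 3.

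H6pd supplies the NADPH that Hsd11b1 uses, and it ranged from 266.818 to 634.766 CPM over the 16 libraries. Among 16 genes of the glucocorticoid receptor and response, 0 were called by edgeR in either sex. In males 4 were under an unadjusted p of 0.05 and 0 were called by DESeq2, and in females the counts were 7 and 2. Of all genes, edgeR called 0.454% in males and 4.24% in females, and DESeq2 called 2.03% and 11.1%. By edgeR 1595 of 16742 genes in males and 3584 in females had an unadjusted p under 0.05. The smallest p in males belonged to Pck1 (log2 fold change −1.498, adjusted p 0.272) and in females to Cdkn1a (2.21, adjusted p 0.0745), both by edgeR. The median of the 16 was −0.0343 in males and 0.430 in females.

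Hsd17b13 encodes a protein of the lipid droplet surface with retinol dehydrogenase activity. In males it was at 298.38, 329.96, 294.194 and 351.716 CPM in CRE- and at 536.801, 356.632, 401.206 and 388.205 in LKO. The male groups did not overlap, though LKO replicate 2 was just above CRE- replicate 4, and the log2 fold change was 0.401 (SE 0.205, adjusted p 0.568 by edgeR). In females it was at 267.126, 376.915, 365.536 and 352.208 CPM in CRE- and at 224.352, 311.967, 278.325 and 164.04 in LKO. The female groups overlapped through CRE- replicate 1, and the log2 value was −0.477 (SE 0.205, adjusted p 0.187 by edgeR).

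Among 18 genes of the lipid droplet, 0 were called in males by edgeR, against 0.454% of all genes, with 4 at an unadjusted p under 0.05 and 1 by DESeq2, the smallest p there being that of Pnpla3 (log2 fold change −1.31, adjusted p 0.177 by edgeR). In females 2 fell, Pnpla3 (−2.77, adjusted p 0.00325) and Dgat2 (−0.955, adjusted p 0.0484), by edgeR, against 4.24% of all genes called. Pnpla3 stayed called in all 16 fits with 1 library left out and without the 3 that stood apart, and Dgat2 in 4 fits and not without the 3. Pnpla3 encodes a lipase that sits on the droplet, and Dgat2 encodes an enzyme that makes triglyceride. The medians of the 18 were −0.00445 in males and −0.183 in females. Over all genes in males DESeq2 called 2.03%, and 1595 of 16742 were at an unadjusted p under 0.05 by edgeR.

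Srd5a1 encodes the reductase that saturates the A ring in the 5α position, as in making dihydrotestosterone from testosterone. It was at 52.0192, 63.537, 67.2888 and 49.8246 CPM in male CRE- and at 17.7759, 45.3077, 75.9233 and 66.1821 in male LKO. It was at 20.4936, 34.4349, 38.5481 and 31.4333 CPM in female CRE- and at 10.6235, 25.2306, 8.34098 and 44.6041 in female LKO. Male LKO replicate 1 lay in the female range, and LKO and CRE- overlapped in both sexes. Every CRE- female was under every CRE- male, the log2 difference being −0.897 (SE 0.458, adjusted p 0.428 by edgeR). The LKO log2 fold change was −0.181 (SE 0.454, adjusted p 0.924) in males and −0.494 (SE 0.457, adjusted p 0.584) in females, by edgeR. Without male LKO replicate 1 the male value for Srd5a1 was 0.0901, of the opposite sign. With 1 library left out the female value ran from −1.08, without female LKO replicate 4, to −0.210, without female LKO replicate 3. It was −0.880 without the 3 libraries that stood apart, and −1.19 with limma-voom (adjusted p 0.0768).

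Hsd3b2, Hsd3b3 and Hsd3b5 lie in a row on the minus strand of chromosome 3, at chr3:98618423-98631859, chr3:98648792-98672465 and chr3:98525952-98552850 of GRCm39. Hsd3b2 and Hsd3b3 encode dehydrogenases with isomerase activity, whereas the product of Hsd3b5 works as a keto-steroid reductase and is known from male mouse liver. Hsd3b5 was at 2.92151, 0.846566, 9.72412 and 2.20244 CPM in male CRE- and at 0.102899, 118.87, 99.6742 and 47.489 in male LKO. Male LKO replicates 2, 3 and 4 were above every male control, and replicate 1, with 4 reads, was under all of them. The log2 fold change was 4.09 (SE 1.12), with an adjusted p of 0.153 by edgeR and 0.140 by DESeq2, so Hsd3b5 was not called. Without male LKO replicate 1 it was 4.49 with an adjusted p of 0.0126 by edgeR. In females Hsd3b5 had 0, 8, 6 and 0 reads in CRE- and 0, 10, 3 and 8 in LKO.

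**Figure D3:**
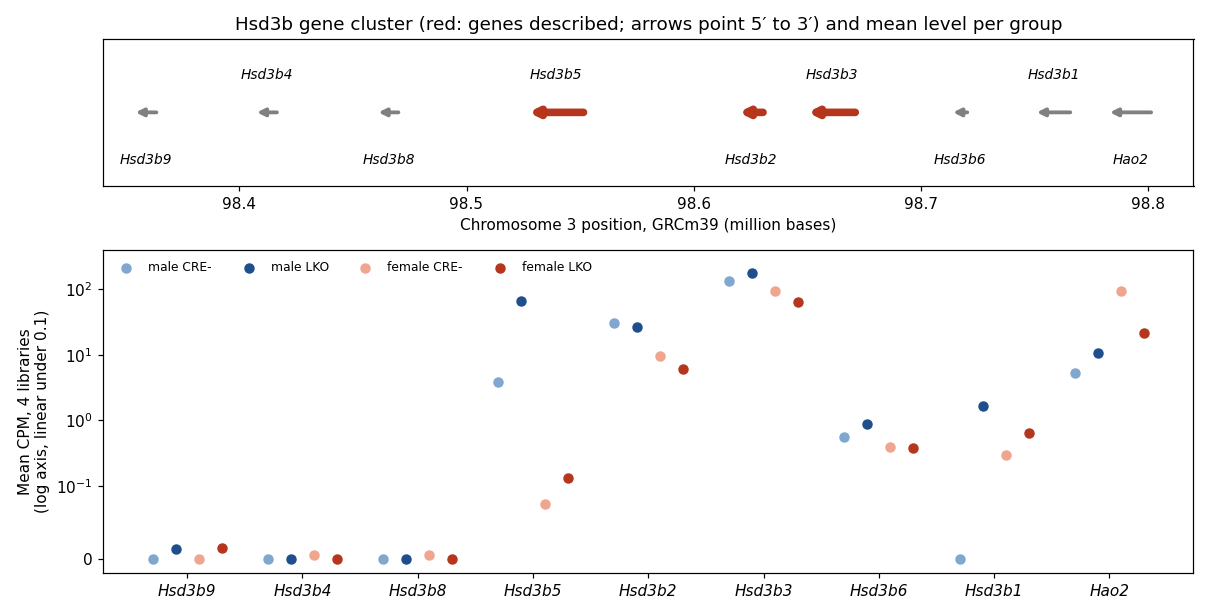
Position of the Hsd3b genes on chromosome 3 (GRCm39) and the mean level of each in the 4 groups.

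Hsd3b3 was at 126.498, 155.122, 86.503 and 162.486 CPM in male CRE- and at 85.5609, 239.739, 191.125 and 202.166 in male LKO. It was at 74.7882, 94.8372, 111.047 and 93.7118 CPM in female CRE- and at 23.7896, 87.1355, 85.3304 and 58.3151 in female LKO. Male LKO replicates 2, 3 and 4 were above every male control, LKO replicate 1 was under every control, and the female groups overlapped. The log2 fold change was 0.438 (SE 0.354, adjusted p 0.729) in males and −0.556 (SE 0.355, adjusted p 0.398) in females, by edgeR. With 1 library left out the Hsd3b3 value ran from 0.257, without male LKO replicate 2, to 0.653, without male LKO replicate 1, in males, and from −0.746, without female LKO replicate 2, to −0.260, without female LKO replicate 1, in females. Without the 3 libraries that stood apart it was 0.269 in males and −0.0950 in females. Hsd3b2 was at 22.0918 to 36.5595 CPM in male CRE-, 9.02943 to 39.9774 in male LKO, 6.89608 to 13.3123 in female CRE- and 1.63632 to 10.6956 in female LKO. Its lowest male library was again LKO replicate 1, and without that library the male log2 fold change of Hsd3b2 was 0.109 in place of −0.163.

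Of 5 other genes of the 3β family, 2 had enough reads to be tested, Hsd3b1 and Hsd3b6, and 0 were called by edgeR in either sex, with 1 under an unadjusted p of 0.05 and 1 called by DESeq2 in males and 0 and 0 in females. Among all genes, edgeR called 0.454% and DESeq2 2.03% in males, and 4.24% and 11.1% in females. An unadjusted p under 0.05 by edgeR was held by 1595 of 16742 genes in males and 3584 in females. Hsd3b4, Hsd3b8 and Hsd3b9 had at most 10 reads in every library. Hsd3b1 had no read in the 4 male CRE- libraries and was at 3.29278, 0, 0.024844 and 3.24157 CPM in male LKO, with an adjusted p of 0.116 by edgeR. Hsd3b6 stayed between 0.115705 and 1.27012 CPM in all 16 libraries. The median log2 fold change of the 2 tested genes in females was 0.556, and none is given for males, where Hsd3b1 was at 0 in every control.

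The coding sequences of the 3 genes are alike enough to matter for counting. Each has 1119 coding bases without the stop codon in GENCODE vM39 (GRCm39), and aligned base by base Hsd3b2 and Hsd3b3 are 95.0849% identical, Hsd3b2 and Hsd3b5 79.8928%, and Hsd3b3 and Hsd3b5 79.5353%. Hsd3b5 is 95.1743% identical to Hsd3b4, and Hsd3b4 and Hsd3b8 have the same coding sequence. Of all 150-base windows of the canonical transcript, 8.11922% for Hsd3b2, 6.11511% for Hsd3b3 and 1.20653% for Hsd3b5 also occur in a transcript of another gene, and reads that mapped to more than 1 place were not counted. For Hsd3b7 the share was 90.7514% (Gm49388), for Srd5a1 19.2623% (Gm17108), and for Hsd17b6 7.09677%. For Hsd11b1, Hsd17b2, Hsd17b13 and Akr1d1 it was 0%. The shares compare only the letters of transcripts that carry different gene names. Whether the matching transcripts lie at the same place in the genome was not checked, so the shares do not give the reads left out. Hsd3b7 was counted at 6275 to 32297 reads in the female libraries. A stretch of 60 coding bases, bases 311 to 370, is shown because it separates Hsd3b5 from Hsd3b2 and Hsd3b3. Capitals mark the 15 positions at which the 3 sequences are not all the same, on the minus strand of GRCm39.
Hsd3b2, chr3:98619574-98619633: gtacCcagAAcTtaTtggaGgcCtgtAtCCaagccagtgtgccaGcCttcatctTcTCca
Hsd3b3, chr3:98649952-98650011: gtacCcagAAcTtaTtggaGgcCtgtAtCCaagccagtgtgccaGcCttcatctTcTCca
Hsd3b5, chr3:98527075-98527134: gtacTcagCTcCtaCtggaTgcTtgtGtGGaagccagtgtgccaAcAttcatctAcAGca
Hsd3b2 and Hsd3b3 carry the same bases throughout this stretch.

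Between the sexes 0 of the 10 genes were called in CRE- mice by edgeR, against 0.92% of all genes. At an unadjusted p under 0.05 by edgeR were 6 of the 10 and 2121 of all 16742 genes. By DESeq2 2 of the 10 were called, against 3.11% of all genes. The CRE- sexes did not overlap for 6 of the 10, against 7.54% of all genes: Hsd3b7, Hsd17b2 and Hsd17b6 were higher in females, and Hsd3b2, Hsd3b5 and Srd5a1 were lower. In LKO mice 2 of the 10 were called by edgeR and 5 by DESeq2, against 1.13% and 6.73% of all genes, and 1 of the 10, Hsd17b13, did not overlap, against 8% of all genes. The CRE- share without overlap was above the share of all genes, also without Hsd3b5, and several of the 10 were already known to differ by sex. The 10 were also chosen with earlier results of these data known. Hsd3b5 had enough reads only in males, so it had to differ between the sexes, and its place in these counts is not read as support. It was at 0.102899 to 118.87 CPM in male LKO and at 0 to 0.249315, at most 10 reads, in female LKO (adjusted p 0.00781 by edgeR). It was not called without the 3 libraries that stood apart (adjusted p 0.119 by edgeR) or by limma-voom (adjusted p 0.401). Of the other 9 genes edgeR called Hsd3b2 lower in female than in male LKO (log2 fold change −2.17, SE 0.479, adjusted p 0.0377). For both genes the LKO sexes overlapped through male LKO replicate 1. For Hsd3b2 the adjusted p by edgeR was 0.0579 and 0.0529 without male CRE- replicates 1 and 2, 0.155, 0.109 and 0.111 without male LKO replicates 2, 3 and 4, 0.0529 and 0.0505 without female CRE- replicates 2 and 4, 0.0595, 0.0538 and 0.0966 without female LKO replicates 1, 3 and 4, and 0.278 without the 3 that stood apart. In LKO mice Hsd3b3 had a log2 fold change of −1.497 (adjusted p 0.0567) and Hsd17b13 one of −0.782 (adjusted p 0.0771) between females and males, by edgeR. By edgeR, the adjusted p of Hsd3b3 was 0.0169 without male LKO replicate 1 and 0.0337 without female LKO replicate 2, that of Hsd17b13 was 0.0337 without female LKO replicate 2, and that of Hsd17b2, 0.106 with all libraries, was 0.0338 without female LKO replicate 3. In CRE- mice edgeR's adjusted p of Hsd3b5 was 0.0912, and 0.00403 without male LKO replicate 1, and that of Hsd3b2 was 0.136, and 0.0415 without female LKO replicate 1.

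Whether the LKO change differed between the sexes was tested as an interaction in the same fit. By edgeR 0 of the 10 genes were called, against 0% of all genes, with 5 of the 10 and 2672 of 16742 genes at an unadjusted p under 0.05, and by DESeq2 1 of the 10 was called, against 2.22% of all genes. The female LKO change was more negative than the male one for all 10 genes, with a median difference in log2 fold change of −1.08, beside 0.0351 over all genes, of which 47.7% were negative. Hsd3b5 is among the 10 with at most 10 reads in each female library, and without the 3 libraries that stood apart the difference for Hsd3b2 was 0.0869, of the opposite sign. Hsd17b2, the gene called by DESeq2, had a difference of −1.51 (SE 0.334, adjusted p 0.135 by edgeR and 0.00680 by DESeq2), and without female LKO replicate 3 edgeR's adjusted p for it was 0.0414. Hsd17b6 had a difference of −1.73 (SE 0.588, adjusted p 0.218), Hsd17b13 of −0.878 (SE 0.290, 0.213), Hsd3b7 of −1.16 (SE 0.416, 0.229) and Hsd11b1 of −1.25 (SE 0.494, 0.253), by edgeR. Without the 3 libraries that stood apart these differences were smaller: −1.13 (adjusted p 0.468) for Hsd17b2, −0.999 (0.598) for Hsd17b6, −0.539 (0.583) for Hsd17b13, −0.816 (0.583) for Hsd3b7 and −0.436 (0.621) for Hsd11b1, by edgeR.

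The other genes of steroid metabolism were counted in the same comparisons, in which edgeR called 0.454% of all tested genes in males and 4.24% in females. DESeq2 called 2.03% and 11.1% of all genes, and 1595 and 3584 of 16742 had an unadjusted p under 0.05 by edgeR. Of 7 tested genes of the 17β family outside the 10, 0 were called by edgeR in either sex, with 1 under an unadjusted p of 0.05 in males and 2 in females, and 0 were called by DESeq2. The smallest p belonged to Hsd17b11 in males (log2 fold change 0.587, adjusted p 0.463) and Hsd17b10 in females (−0.833, 0.137), by edgeR, and the medians were −0.00757 and −0.479. Of 15 other reductases and cofactor partners, 0 were called in males by edgeR, with 2 under an unadjusted p of 0.05 and 0 by DESeq2, the smallest p being that of Rdh16 (−0.960, adjusted p 0.315), which fell in females (−1.34, adjusted p 0.0355 by edgeR) as 1 of 15. Rdh16 encodes a retinol dehydrogenase related to Hsd17b6, and its female call was kept in 9 of the 16 fits with 1 library left out and not without the 3. The medians of these 15 were 0.454 in males and −0.319 in females.

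Of 16 steroid hydroxylases 1 rose in males, Cyp39a1, and 3 fell in females, Cyp3a44 (log2 fold change −2.84, adjusted p 0.00697), Cyp3a16 (−1.79, 0.0297) and Cyp3a41a (−2.73, 0.0298), by edgeR, with medians of 0.728 and −1.02. Here and for the conjugation genes the shares called over all genes were 0.454% in males and 4.24% in females. These 3 encode cytochromes known to be higher in female liver. Cyp3a44 stayed called in 16, Cyp3a41a in 12 and Cyp3a16 in 11 of the 16 fits with 1 library left out, and all 3 without the 3 libraries that stood apart. Of 14 conjugation genes 0 were called in males by edgeR, with 7 under an unadjusted p of 0.05 and 2 by DESeq2, Papss2 having the smallest p (−0.832, adjusted p 0.109). In females Sts rose (0.701, adjusted p 0.0334) and Papss2 fell (−1.28, adjusted p 0.00651), by edgeR. Papss2 makes the sulfate donor, whereas Sts, the steroid sulfatase, removes sulfate, so the list and its median hold both directions. Papss2 stayed called in all 16 fits and without the 3 libraries, Sts in 10 fits and not without the 3. The conjugation medians were 0.318 in males and −0.695 in females. Over all genes in males DESeq2 called 2.03%, and 1595 of 16742 had an unadjusted p under 0.05 by edgeR.

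Steroid genes of the liver respond to growth hormone and sex hormones, so 15 receptors and regulators were counted, beside 0.454% of all genes called in males and 4.24% in females. Esr1, the estrogen receptor, fell in both sexes (log2 fold change −1.33, adjusted p 0.0360 in males and −1.32, adjusted p 0.0173 in females), and in females Prlr (−1.17, 0.0176) and Ghr (−1.24, 0.0184) also fell, by edgeR, with medians of 0.0683 and −0.267. With 1 library left out Esr1 stayed called in 9 of 16 fits in males and 15 in females, Prlr in 14 and Ghr in 13, and without the 3 libraries that stood apart only Esr1 was called, in both sexes. Of 16 male-biased genes 0 were called in males by edgeR, with 3 under an unadjusted p of 0.05 and 1 by DESeq2, Cyp7b1 having the smallest p (1.05, adjusted p 0.1001), and 1 fell in females, Nudt7 (−1.69, adjusted p 0.0470). Of 16 female-biased genes 0 were called in males by edgeR, with 6 under an unadjusted p of 0.05 and 3 by DESeq2, Sult2a1 having the smallest p (8.28, adjusted p 0.119), a value carried by male LKO replicate 1. In females 5 of these 16 fell, Cyp3a44, Prlr, Cyp3a16 and A1bg (−4.75, adjusted p 0.0297) among them. Nudt7 stayed called in 3 and A1bg in 10 of the 16 fits, and neither without the 3 libraries. The medians were 0.212 and 0.691 for the male-biased and 0.781 and −1.46 for the female-biased genes, in males and females. Over all genes in males DESeq2 called 2.03%, and 1595 of 16742 were under an unadjusted p of 0.05 by edgeR.

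Of 14 liver-enriched transcription factors 0 were called in males by edgeR, with 3 under an unadjusted p of 0.05 and 2 by DESeq2, Nr0b2 having the smallest p (log2 fold change 1.39, adjusted p 0.153). Over all genes in males edgeR called 0.454% and DESeq2 2.03%, and 1595 of 16742 were under an unadjusted p of 0.05 by edgeR. In females 2 fell, Nr5a2 (−0.584, adjusted p 0.0483) among them, by edgeR, against 4.24% of all genes called, and the medians were −0.112 and −0.328. Nr5a2 stayed called in 4 of the 16 fits with 1 library left out, and it was not called without the 3 that stood apart (adjusted p 0.156 by edgeR).

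In some marker lists of other cells and states genes were called higher in female LKO, where 4.24% of all genes were called by edgeR. Of 12 macrophage markers 2 rose, Trem2 and Adgre1, and the summed level was 895.329, 650.293, 723.627 and 1225.42 CPM in female CRE- and 4067.64, 1202.39, 2543.98 and 1572.22 in female LKO, with Lyz2 the most abundant per kilobase of exon. Of 7 tested neutrophil markers 3 rose, with sums of 38.126, 21.0425, 17.191 and 18.5766 CPM in CRE- and 126.072, 45.7243, 67.9534 and 602.156 in LKO, S100a9 being the most abundant per kilobase. Of 8 proliferation genes 5 rose, with sums of 11.3336, 10.3752, 6.60824 and 19.2449 CPM in CRE- and 87.9836, 22.7126, 38.1746 and 39.9181 in LKO, Top2a being the most abundant per kilobase. With 1 library left out the counts ran from 0 to 7 for macrophage, 0 to 7 for neutrophil and 1 to 6 for proliferation genes, and without the 3 libraries that stood apart 1 of these 10 calls was kept, in Nek2. Female LKO replicate 1, in which Hsd3b2, Hsd3b3, Hsd3b7, Hsd17b6 and Akr1d1 were the lowest of the group, had the highest macrophage and proliferation sums of the female libraries.

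Of 8 tumour and oncofetal markers 4 rose in female LKO, Ly6d, Igf2, H19 and Afp, with sums of 95.5701, 65.6969, 56.2179 and 136.612 CPM in CRE- and 90.35, 277.363, 160.655 and 2623.78 in LKO, H19 being the most abundant per kilobase. Ly6d stayed called in 16 of the 16 fits with 1 library left out, Igf2 and H19 in 13 and Afp in 7, and all but Afp also without the 3 that stood apart. Female LKO replicate 4, in which Hsd11b1, Hsd17b2 and Hsd17b13 were lowest, held the highest neutrophil and oncofetal sums. Of 9 periportal genes, Hsd17b13 among them, 1 fell, Cyp2f2, with sums of 9408.61, 9568, 11546.2 and 10491 CPM in CRE- and 3479.42, 10879.4, 4293.9 and 5895.44 in LKO, Ass1 being the most abundant per kilobase, and LKO replicate 2 alone was in the control range. Cyp2f2 stayed called in all 16 fits, but not without the 3 libraries (adjusted p 0.134 by edgeR). In the endothelial list 1 of 8 rose, Cdh5, called in 12 of the 16 fits and not without the 3. In the T and NK cell, B and plasma cell, stellate cell, cholangiocyte, acute phase, pericentral and adrenal lists 0 genes were called in females by edgeR, with 1, 1, 0, 1, 6, 1 and 2 at an unadjusted p under 0.05 and 0, 0, 0, 0, 0, 1 and 0 called by DESeq2. In males 0 genes were called in any of these marker lists by edgeR, with 6 of 7 neutrophil and 5 of 9 periportal genes the most at an unadjusted p under 0.05, and 2 and 1 of them called by DESeq2. With 1 library left out edgeR called up to 1 neutrophil and up to 1 periportal gene in males, and without the 3 libraries 2 and 0. Over all 16742 genes 1595 in males and 3584 in females were at an unadjusted p under 0.05 by edgeR. DESeq2 called 2.03% and 11.1% of all genes, and edgeR 0.454% and 4.24%. None of these markers was at 0 throughout, and their part in the steroid gene results was not tested.

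Across the 16 libraries the genes most like Hsd17b6 by Pearson r of log2 CPM were Rad51b (0.880), Slc9a2 (0.870) and Vtcn1 (0.861), and with group means subtracted Rida (0.904), Slc25a34 (0.889) and Eif4a2 (0.887). For Hsd17b2 they were Anp32a (0.913), Atg101 (0.886) and Hdhd3 (0.882), and with group means subtracted Anp32a (0.897), Slc16a11 (0.868) and Atg101 (0.845). For Akr1d1 they were Dmgdh (0.949), Adk (0.915) and Aass (0.899), and with group means subtracted Atl2 (0.938), Mmut (0.925) and Svip (0.922). Among the 10 genes themselves, with group means subtracted over the 16 libraries, the closest pairs were Hsd3b2 with Hsd3b3 (r = 0.857), Hsd3b3 with Hsd3b7 (0.849) and Hsd11b1 with Hsd17b6 (0.810). For Hsd17b13 r was 0.796 with Hsd17b6, 0.792 with Hsd11b1 and −0.422 with Srd5a1, also with group means subtracted. Without subtracting group means these were 0.462, 0.717 and 0.193, the last of the opposite sign. These r values share libraries and depth and are descriptions.

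Promoter windows of 300 bases, 250 before and 50 after the start, were matched for 9 of the 10 genes in RefSeq on GRCm38.p6, and not for Hsd17b2. In all 10 motifs, of which 9 are given, were searched on both strands. Of these 5 were added after the earlier 5 gave no match for Hsd17b6 and Akr1d1, all with the results known. The cAMP response element TGACGTCA was in 1.7899% of all 32851 windows and in none of the 9 genes, and its shorter form TGACG, which lies within it, was in 20.8122% of windows and in Hsd17b13. The STAT5 element TTCNNNGAA was in 8.29807% of windows and in Hsd3b7, the steroid receptor half-site AGAACA in 18.9735% and in Hsd3b2, and the HNF4 element CAAAGTCCA in 0.474871% and in Hsd3b3. The CCAAT box CCAAT was in 37.4083% of windows and in Hsd3b3, Hsd11b1, Hsd17b6 and Srd5a1, and the FOXA element TGTTTNC in 20.4864% and in Hsd3b3, Hsd3b5, Hsd11b1 and Hsd17b6. The C/EBP element TTNNGCAA was in 10.7972% of windows and in Akr1d1, while the TATA box TATAAA (13.616%) was in none of the 9. The motif that is not given was also in none of the 9. A match describes letters in a window and no more.

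The 250 bases before the start are shown for the 2 genes with a window that were called in an LKO comparison, 5′ to 3′ on GRCm38.p6. Capitals mark the matched letters of the CCAAT box and FOXA element in Hsd17b6, which has 2 annotated starts, and of the C/EBP element in Akr1d1.
Hsd17b6, chr10:128007612-128007861, minus strand: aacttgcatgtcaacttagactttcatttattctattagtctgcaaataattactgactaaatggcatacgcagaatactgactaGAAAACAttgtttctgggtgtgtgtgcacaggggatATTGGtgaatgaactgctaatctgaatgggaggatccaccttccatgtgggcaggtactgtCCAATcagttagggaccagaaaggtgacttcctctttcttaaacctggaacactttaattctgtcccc
Hsd17b6, chr10:128007509-128007758, minus strand: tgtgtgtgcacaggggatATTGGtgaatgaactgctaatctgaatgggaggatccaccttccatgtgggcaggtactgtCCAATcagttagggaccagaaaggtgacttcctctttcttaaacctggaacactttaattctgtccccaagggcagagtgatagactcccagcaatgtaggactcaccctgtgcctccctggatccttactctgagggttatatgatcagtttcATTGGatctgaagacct
Akr1d1, chr6:37529923-37530172, plus strand: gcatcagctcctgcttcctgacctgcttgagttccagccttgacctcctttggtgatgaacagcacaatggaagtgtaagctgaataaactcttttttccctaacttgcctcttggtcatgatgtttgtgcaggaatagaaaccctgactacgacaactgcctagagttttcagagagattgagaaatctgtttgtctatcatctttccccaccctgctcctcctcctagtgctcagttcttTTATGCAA
The Akr1d1 match ends at the base before the start.

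Hsd3b5 and Hsd3b3 are shown because male LKO replicates 2, 3 and 4 were above every male control for both genes, and replicate 1 was under every control for both. Their 250 bases before the start share a run of 24 bases, in capitals, which holds the letters of the FOXA element on the opposite strand. Hsd3b3 has 2 annotated starts and is shown at the upstream one. Hsd3b2 shares no run of more than 8 bases with either gene. In male LKO replicate 1 Hsd3b2 was also under every male control. With group means subtracted, r was 0.857 for Hsd3b2 with Hsd3b3 and 0.727 with Hsd3b5, and 0.566 between Hsd3b3 and Hsd3b5. With all libraries neither Hsd3b5 nor Hsd3b3 was called in males, and whether the run bears on their levels was not tested.
Hsd3b5, chr3:98645535-98645784, minus strand: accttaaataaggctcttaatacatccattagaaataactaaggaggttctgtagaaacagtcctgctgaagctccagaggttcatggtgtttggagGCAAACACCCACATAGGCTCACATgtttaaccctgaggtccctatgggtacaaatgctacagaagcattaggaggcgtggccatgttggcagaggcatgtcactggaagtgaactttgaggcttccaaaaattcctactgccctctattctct
Hsd3b3, chr3:98763129-98763378, minus strand: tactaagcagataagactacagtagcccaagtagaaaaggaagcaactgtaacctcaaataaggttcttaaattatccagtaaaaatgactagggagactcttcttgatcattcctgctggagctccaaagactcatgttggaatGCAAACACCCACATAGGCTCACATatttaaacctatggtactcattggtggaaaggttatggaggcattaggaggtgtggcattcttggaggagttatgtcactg
The shared run lies at different distances from the 2 starts.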

How the data were processed

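Poly-A RNA of 16 mouse livers was sequenced as paired reads. The authors aligned them with STAR 2.7.1a to GRCm39, and the deposited values are read counts per gene from featureCounts (Subread 2.0.6), in which 85.0% of the counts from 1 to 10 were even, as when each mate is counted. Samples were grouped by the labels into 4 groups of 4. With R 4.3.3, genes were filtered with edgeR 4.0.16 (filterByExpr, minimum count 10), scaled with TMM factors and fitted with 1 mean per group by the quasi-likelihood method, and p was adjusted by Benjamini-Hochberg over all 16742 tested genes. Comparisons were LKO with CRE- in each sex, the difference and the average of these, and females with males in each genotype. Log2 CPM used a prior count of 2. Alternatives were DESeq2 1.42.0, limma 3.58.1 voom with quality weights, each sex or genotype alone, other scaling and filters, the replicate number as a block, and each library left out. The code was tested on simulated data. The 10 genes and all gene lists were chosen with earlier results of these data known. Named genes are the 10, Gcgr, the called genes of each list with the smallest p (up to 4), or the 1 or 2 of smallest p where none was called, the gene of a marker list highest per kilobase, and the 3 genes most like each called gene. Other genes named, such as Mup20, Cux2, H6pd and the neighbours, were chosen after their values were seen. Not every called gene of a list is named. Hsd3b5 in females, with at most 10 reads per library, was given no fold of its own but is in the medians. Promoters came from RefSeq (GRCm38.p6), coding sequences from GENCODE vM39.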

Additional observations from a re-analysis of the deposited data

Results flagged for a closer look

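Within each group of 4 libraries, the 10 genes and Gcgr were checked for a library far from the other 3 by Dixon's test. Of 44 gene and group sets, 3 held such a library, and chance gives about 1 in 20. Gcgr in male CRE- replicate 3 was at 127.35 CPM, with the nearest other male control at 189.567. Hsd11b1 in female CRE- replicate 1 was at 529.971 CPM, with the nearest other female control at 754.693. Hsd17b2 in female LKO replicate 3 was at 119.664 CPM, with the nearest other female LKO library at 70.2818.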

How the results depend on the processing

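Of the log2 fold changes of the 10 genes under all alternatives, 1423 kept their direction and their side of the threshold, 30 passed it where they had not before, 63 no longer passed it and 16 changed sign. In males 1 gene was called under every alternative that kept all libraries, with 0 to 1 when any library was left out. In females, with 2 called at first, DESeq2 and limma-voom gave 4, each sex alone 0, upper-quartile scaling 0, no filter 1, leaving out a library 0 to 3, and leaving out the 3 libraries that stood apart 0. The number called over all genes in females also differed, at 710 by edgeR and 1816 by DESeq2. These shifts are therefore not read as particular to the 10 genes. The replicate block gave 3 called genes in females, 1 between the CRE- sexes and 3 between the LKO sexes. With it Hsd3b7 was gained in females (adjusted p 0.0351) and Hsd3b2 between the CRE- sexes (0.0486), by edgeR. For the difference between the sexes DESeq2 gave 1 and leaving out a library 0 to 1. For the average upper-quartile scaling gave 1, leaving out a library 1 to 2, and leaving out the 3 libraries 1. Between the CRE- sexes DESeq2 gave 2, each genotype alone 3, no filter 1, and leaving out a library 0 to 1. Between the LKO sexes, with 2 called at first, no filter and limma-voom gave 3, Hsd3b3 being gained in both and with the block (adjusted p 0.0431, 0.0108 and 0.0210), and with limma-voom Srd5a1 gained (0.0232) and Hsd3b5 lost. DESeq2 gave 5, each genotype alone 0, at least 10 counts in every library 1, leaving out the 3 libraries 0, and leaving out a library 1 to 4. The sign changes were in values that had not been called, and the cause was not tested. Without the 3 libraries the male values were −0.0191514 for Hsd3b7 and −0.0847202 for Hsd11b1, the difference for Hsd3b2 0.0868781, the averages 0.0868623 for Hsd3b3 and 0.0853705 for Hsd17b13, and the LKO sex values 0.100746 for Hsd11b1 and 0.0582015 for Hsd17b6. With limma-voom the Hsd3b3 average was 0.0753799. Leaving out 1 library, the male ranges were −0.420395 to 0.109435 for Hsd3b2, −0.0258909 to 0.372188 for Hsd3b7, −0.0896089 to 0.230597 for Hsd11b1 and −0.431677 to 0.0900645 for Srd5a1, the average ranges −0.153823 to 0.0848027 for Hsd3b3 and −0.110675 to 0.0335661 for Hsd17b13, and the LKO sex range of Akr1d1 −0.0411995 to 0.346143. Of 912 gene list counts under the alternatives 712 stayed within 1.5 times, 87 were higher and 113 lower. Halving the counts and leaving out the 3 libraries were chosen after seeing the data. Hsd3b5 could not be tested in females alone, in LKO alone, or with at least 10 counts in every library. With 4 mice per group, small changes of the 10 genes may not be called, and the size of change that would be called was not tested.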
